A study of Homo sapiens with 6 samples.

Results

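The genes described here encode the machinery of store-operated calcium entry and of calcium release from and return to the endoplasmic reticulum (ER). They are the plasma membrane channel genes ORAI1, ORAI2 and ORAI3, the ER calcium sensor genes STIM1 and STIM2, the inositol trisphosphate (IP3) receptor genes ITPR1, ITPR2 and ITPR3, and the genes ATP2A2 and ATP2A3 of the SERCA pumps. These 10 of the 23368 symbols in the count table were chosen by name as one pathway, with their change between the groups already known. That change is therefore given as a description and supports nothing by itself. Their levels in the control libraries and their promoters were not part of the choice by name. Their shares within each family rest on the same contrast, and the other calcium genes were listed with earlier results of these data known.

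When a receptor at the cell surface activates phospholipase C, IP3 opens IP3 receptors in the ER membrane and calcium flows into the cytosol. STIM proteins sense the fall of calcium in the ER lumen, move to contacts with the plasma membrane and open ORAI channels there, and the calcium that enters activates calcineurin and NFAT. SERCA pumps return calcium to the ER. ORAI1 is known as the main channel of this entry in most cells, and ORAI2 as a paralogue that can join it in mixed channels and lower their current. STIM1 is known to respond to strong store depletion and STIM2 to small losses of ER calcium. ATP2A2 encodes the pump found in nearly all cells, and ATP2A3 a pump of lower calcium affinity found in blood cells and many epithelia, the colon included.

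RNA was sequenced from HCT116 cells, an established human line from a colon cancer, whose ADNP transcript had been targeted by small interfering RNA (siADNP), and from cells that received a control siRNA (siControl). ADNP encodes a zinc finger and homeodomain protein of chromatin. The comparison asks which transcripts differ when ADNP is depleted, and each group held 3 libraries, numbered 1 to 3, with no statement of whether they came from separate transfections. P-values therefore measure the spread between these samples, which may be technical. In RNA from whole cultures, fewer cells that make a transcript and less of it per cell cannot be told apart.

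Reads assigned to genes numbered 7396771 to 8726017 in the siADNP libraries and 8282290 to 10265175 in the siControl libraries. ADNP stood at 46.7 to 59.8 CPM (read counts per 1000000 reads in genes) with siADNP and at 155 to 171 CPM with siControl, so the target was lower in every siADNP library. Of 11 markers of epithelium and colon, KRT8, KRT18, KRT19 and EPCAM were abundant, while VIL1, CDX1 and CEACAM5 had 0 reads in all libraries. The summed marker level was 3068 to 3284 CPM with siADNP and 3171 to 3238 CPM with siControl. Within this sum KRT19 was lower with siADNP (444 against 491 CPM, adjusted p = 0.0203, edgeR). CLDN4 was higher (53.5 against 44.9 CPM, adjusted p = 0.00691, edgeR), though not past 0.05 with an offset for transcript GC content (0.0624). CDH1 (66.0 against 58.9 CPM) was higher without passing 0.05 (adjusted p = 0.0688, edgeR). The groups did not overlap for KRT19, CLDN4 and CDH1, as for 40.8% of all tested genes. The 7 fibroblast markers summed to 7.86 to 10.3 and 7.48 to 8.44 CPM, with DCN and LUM at 0 reads. The 7 blood cell markers summed to 9.74 to 11.4 CPM with siADNP and 6.87 to 8.52 CPM with siControl. Nearly all of that was CD68, a lysosomal protein, while PTPRC, the common leukocyte antigen, had 7 and 6 reads over the 3 libraries of each group and HBB had 0.

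The ORAI genes show the widest difference between paralogues, so the sequence before the start of ORAI2 is set beside that of ORAI3. ORAI2 was higher with siADNP, while ORAI3, with 10 to 20 reads per library, showed no clear change. The pair was thus picked by the known contrast, and a link of these sequences to the change was not tested. Both sequences come from RefSeq (GRCh38.p14, plus strand), from the 250 bases before the annotated start, keeping the longest stretch outside every GENCODE exon. The ORAI2 stretch is chr7:102433356-102433529, with 174 bases, and the ORAI3 stretch is chr16:30948818-30949065, with 248 bases. Capitals mark the E-box letters CACGTG and the GC box letters GGGCGG, read on both strands.
ORAI2: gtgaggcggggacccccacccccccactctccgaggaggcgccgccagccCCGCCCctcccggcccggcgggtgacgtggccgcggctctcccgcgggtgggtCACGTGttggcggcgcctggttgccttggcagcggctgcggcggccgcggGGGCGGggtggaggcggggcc
ORAI3: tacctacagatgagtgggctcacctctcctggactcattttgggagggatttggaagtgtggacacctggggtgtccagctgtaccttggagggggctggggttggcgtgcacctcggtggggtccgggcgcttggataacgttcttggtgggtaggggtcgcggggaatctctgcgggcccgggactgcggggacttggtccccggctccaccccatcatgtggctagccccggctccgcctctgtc
The ORAI2 stretch held 1 E-box, 2 GC boxes and 23 CpG dinucleotides at 82.2% GC, and the ORAI3 stretch held no E-box, no GC box and 13 CpG dinucleotides at 64.5% GC.

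Over the whole 250-base window, ORAI2 reached 81.2% GC, and 97.7% of 35116 promoter windows in the RefSeq table had a lower value (median 58.0%). An E-box was in 6.3% of all windows and a GC box in 42.6%. Of the 7 members with a promoter entry (11 windows in all), ORAI2 alone had an E-box. GC boxes numbered 2 each in the windows of ITPR3 and STIM2 and up to 8 in those of STIM1. The ITPR1 window had none, and the ATP2A2 windows had 0 and 4. Other letters searched were CCAAT (in 32.0% of all windows), TGACG (21.2%) and TATAAA (10.7%). CCAAT was found once in a window each of STIM2, STIM1 and ATP2A2. ORAI2 had 1 TGACG, ATP2A2 had 2 in 1 of its windows, and no member had TATAAA. These matches describe letters only. ORAI1, ITPR2 and ATP2A3 had no entry.

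Of the 10 members, all tested in a fit across 12489 genes, 5 were called higher with siADNP (ORAI2, STIM1, STIM2, ITPR3 and ATP2A3), 1 lower (ITPR2) and 4 were not called (ORAI1, ORAI3, ITPR1 and ATP2A2), at an adjusted p under 0.05 in edgeR's quasi-likelihood test. Over all tested genes 28.3% were called, 14.6% higher and 13.7% lower. The libraries of the groups did not overlap for the 6 called members, against 40.8% of all tested genes, 20.1% with siADNP higher and 20.7% with it lower. Without siControl replicate 2 the number called higher was 3, and without siADNP replicate 1 or 3 or siControl replicate 3 the number called lower was 0 in edgeR, with ITPR2 at an unadjusted p under 0.05 in each. The median log2 fold change was 0.16 over the members and -0.00128 over all tested genes. Calls of members are described in this way because the contrast was known when the genes were chosen.

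**Figure D1:**
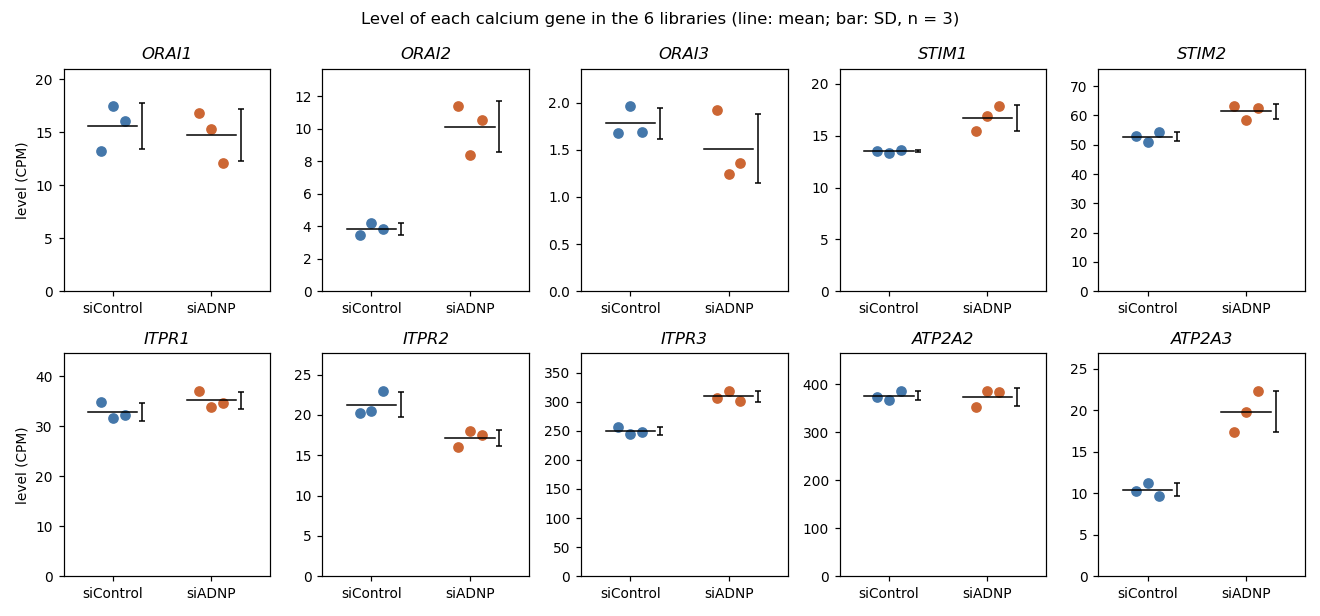
Level of each member in CPM (vertical axes, each from 0) in the siControl (blue) and siADNP (orange) libraries; lines are means and bars SDs of 3 libraries. ORAI2 lies at 8.38 to 11.4 CPM with siADNP and at 3.48 to 4.23 CPM with siControl, and ATP2A2 and ORAI1 overlap between the groups.

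ORAI2 had the largest change of the members. Its level was 11.4, 8.38 and 10.6 CPM in siADNP libraries 1, 2 and 3 and 3.48, 4.23 and 3.86 CPM in siControl libraries 1, 2 and 3. Every siADNP library was above every siControl library. These values rest on 89, 74 and 78 reads against 31, 43 and 32, so the counting error of single libraries is sizeable. The means were 10.1 ± 1.57 and 3.85 ± 0.377 CPM (SD, n = 3 each), a 2.60-fold rise (log2 fold change 1.38 ± 0.18, SE), and 0.256% of tested genes had a higher log2 fold change. The change was 1.28 to 1.51 over 15 alternatives on the count scale, and the call held in all 16 alternatives tried. Exons of ORAI2 and of ALKBH4, a demethylase gene on the opposite strand, share 584 bases in GENCODE, 5.40% of the ORAI2 exonic length. ALKBH4 stood at 13.4 ± 0.390 CPM with siADNP and 13.5 ± 2.19 CPM with siControl (SD, n = 3 each).

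ORAI1, the main channel gene, stood at 16.8, 15.3 and 12.1 CPM with siADNP and at 13.2, 17.5 and 16.0 CPM with siControl. The groups overlapped in part, with the lowest library under siADNP and the highest under siControl. Its log2 fold change was -0.08 ± 0.13 (SE), with a 95% normal interval of -0.33 to 0.17, and was -0.21 with an offset for transcript GC content. The sign turned without siADNP replicate 3 (0.04) or siControl replicate 2 (0.02). ORAI3, a channel paralogue known only from mammals, was weak, with 15, 11 and 10 reads with siADNP and 15, 20 and 14 with siControl. Its log2 fold change of -0.25 ± 0.33 has an interval of -0.90 to 0.40, so a change of moderate size in either direction was not detectable at this depth. In GENCODE, 1135 bases (46.0%) of the ORAI3 exonic length also belong to AC135048.1 on the same strand, which is not a symbol of the count table, so the reads of ORAI3 are uncertain in this stretch.

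The sensor genes STIM1 and STIM2 were both called higher, by smaller steps. STIM1 stood at 15.4, 16.9 and 17.9 CPM with siADNP and at 13.6, 13.4 and 13.6 CPM with siControl. The siControl libraries lay close together and below each siADNP library. The log2 fold change was 0.31 ± 0.12 (SE), or 1.24-fold, and the adjusted p of 0.0456 (edgeR) was just inside the threshold. STIM1 lost the call in 10 of 16 alternatives (adjusted p 0.0308 to 0.190 over all of them). Among these were the GC offset (0.109), DESeq2's Wald test (0.190) and leaving out siADNP replicate 2 (0.0994) or 3 (0.135) or siControl replicate 1 (0.0910), 2 (0.107) or 3 (0.0916).

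STIM2 stood at 63.3, 58.6 and 62.5 CPM with siADNP and at 53.1, 51.0 and 54.3 CPM with siControl. The groups did not overlap, and the log2 fold change was 0.22 ± 0.07 (SE), or 1.16-fold. The call ended in DESeq2's Wald test (adjusted p = 0.0686) and without siControl replicate 2 (0.0643, edgeR), in a range of 0.00392 to 0.0686 over the 16 alternatives. STIM2 made up 75.6 ± 1.74% of the summed STIM level per length with siADNP and 76.7 ± 0.403% with siControl (SD, n = 3 each), and these ranges overlapped.

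The IP3 receptor genes moved in different directions. ITPR3, by far the most abundant of them, stood at 307, 319 and 302 CPM with siADNP and at 257, 244 and 249 CPM with siControl. Every siADNP library was above every siControl library, with a log2 fold change of 0.31 ± 0.05 (SE), or 1.24-fold. Its call held in all 16 alternatives, and with the GC offset the log2 fold change was 0.23. ITPR2, known as a receptor type with high sensitivity to IP3, stood at 16.1, 18.0 and 17.5 CPM with siADNP and at 20.3, 20.5 and 23.0 CPM with siControl. It was lower in each siADNP library, at 81.1% of control. The fitted log2 change was -0.30 ± 0.11 (SE; adjusted p = 0.0299, edgeR).

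The ITPR2 call ended in 6 of 16 alternatives, over which the adjusted p ran from 0.0250 to 0.140. These were the GC offset without and with a block for replicate number (0.101 and 0.112), DESeq2's Wald test (0.133) and leaving out siADNP replicate 1 (0.111), siADNP replicate 3 (0.0563) or siControl replicate 3 (0.140). ITPR1, the receptor type best known from neurons, stood at 37.1, 33.8 and 34.6 CPM with siADNP and at 34.9, 31.6 and 32.2 CPM with siControl. The groups overlapped and the log2 fold change was 0.10 ± 0.08 (SE), with an interval of -0.06 to 0.26.

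Of the SERCA pump genes, ATP2A3 was higher with siADNP and ATP2A2 was not called. ATP2A3 stood at 17.3, 19.8 and 22.4 CPM with siADNP and at 10.3, 11.2 and 9.64 CPM with siControl. The groups lay well apart, at 19.8 ± 2.52 and 10.4 ± 0.787 CPM (SD, n = 3 each), a 1.90-fold rise with a log2 fold change of 0.92 ± 0.12 (SE). The call held in all 16 alternatives, with log2 fold changes of 0.80 to 1.01 on the count scale, and 1.31% of tested genes had a higher value. ATP2A3 is also known from blood cells, and whether the blood marker levels given above have a part in its rise was not tested. CD68, nearly all of that sum, stood at 9.44 CPM with siADNP and 7.04 CPM with siControl.

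ATP2A2, the most abundant member, stood at 353, 386 and 383 CPM with siADNP and at 373, 368 and 387 CPM with siControl. The groups overlapped almost fully. The log2 fold change was -0.00716 ± 0.05 (SE), its interval was -0.10 to 0.09, and its sign turned in 6 alternatives, with values up to 0.0338. The summed SERCA level per length was 69.7 ± 3.68 CPM per kb with siADNP and 68.1 ± 1.55 with siControl (SD, n = 3 each), with overlapping ranges.

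**Figure D2:**
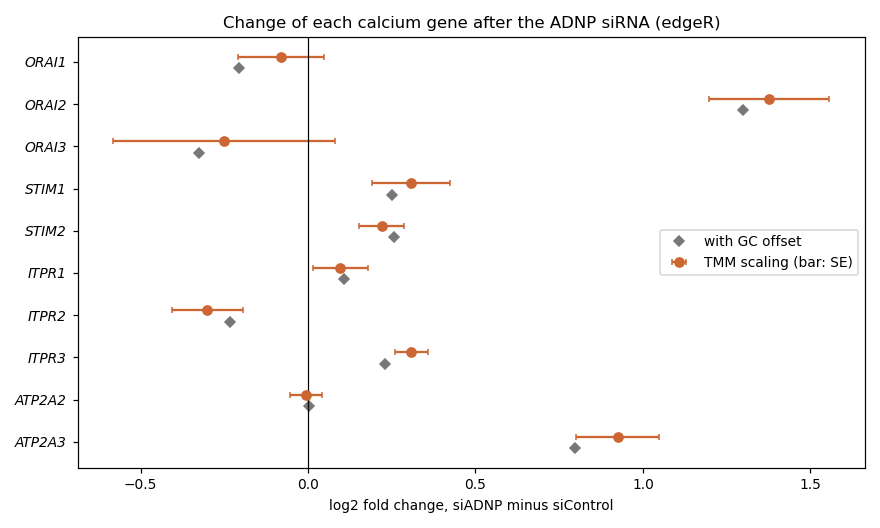
Log2 fold change of each member (horizontal axis, siADNP minus siControl) in edgeR with TMM scaling (orange, bar is the SE) and with a correction for GC content (grey diamonds, no bar). ORAI2 at 1.38 and ATP2A3 at 0.92 stand far to the right, and the correction moves them to 1.30 and 0.80.

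Levels of different genes were compared per length, as CPM divided by the length of the longest GENCODE transcript in kilobases. In the siControl libraries ATP2A2 was highest (65.9 ± 1.70 CPM per kb), followed by ITPR3 (25.3 ± 0.644), STIM2 (10.2 ± 0.326) and ORAI1 (7.29 ± 1.02; SD, n = 3 each). ITPR1 (3.22) and STIM1 (3.10) came next and did not differ beyond their ranges, nor did ATP2A3 (2.15) and ITPR2 (1.86). ORAI3 (0.806) and ORAI2 (0.357) were lowest. The other neighbours in this order had ranges that did not overlap. Within the families, ITPR3 thus made up 83.3 ± 0.268% of the IP3 receptor level and ATP2A2 96.8 ± 0.306% of the SERCA level in control cells (SD, n = 3 each).

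The place of ORAI2 depends on the length used, because its longest annotated transcript has 10811 bases and its coding sequence 762, against 2138 and 903 for ORAI1 and 2206 and 885 for ORAI3. Per kilobase of coding sequence ORAI2 (5.06 ± 0.495) stood above ORAI3 (2.01 ± 0.184) in the siControl libraries (SD, n = 3 each), the reverse of the order per transcript. Which ORAI2 transcripts these cells make is not resolved by counts per gene. With either length ORAI1 was the highest of the 3 in the siControl libraries.

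The share of ORAI2 in the ORAI family was higher in every siADNP library. Per longest transcript it was 10.8, 9.13 and 13.5% in siADNP libraries 1, 2 and 3 and 4.42, 4.13 and 4.14% in siControl libraries 1, 2 and 3. Per coding sequence the mean was 42.5 ± 5.40% against 20.8 ± 0.664% (SD, n = 3 each). The ratio of ORAI2 to ORAI1 per coding length was 0.831 ± 0.196 with siADNP and 0.294 ± 0.0148 with siControl, and in 1 siADNP library it exceeded 1 (1.04). The summed ORAI level was 8.51 ± 1.28 and 8.45 ± 1.11 CPM per kb of transcript, with overlapping ranges, and 31.3 ± 3.91 and 24.3 ± 3.04 CPM per kb of coding sequence, with ranges that did not overlap.

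Shares within the other families moved by a few percentage points. ATP2A3 made up 5.89 ± 0.50% of the SERCA level with siADNP and 3.17 ± 0.306% with siControl, per longest transcript (SD, n = 3 each). ITPR2 made up 4.15 ± 0.225% and 6.13 ± 0.475% of the IP3 receptor level, and ITPR3 86.3 ± 0.459% and 83.3 ± 0.268%. None of these ranges overlapped between the groups. The summed IP3 receptor level was 36.3 ± 0.879 CPM per kb with siADNP and 30.4 ± 0.792 with siControl, and the summed STIM level 15.8 ± 0.502 and 13.3 ± 0.355. These shares rest on the same contrast as the choice of genes and are a description.

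**Figure D3:**
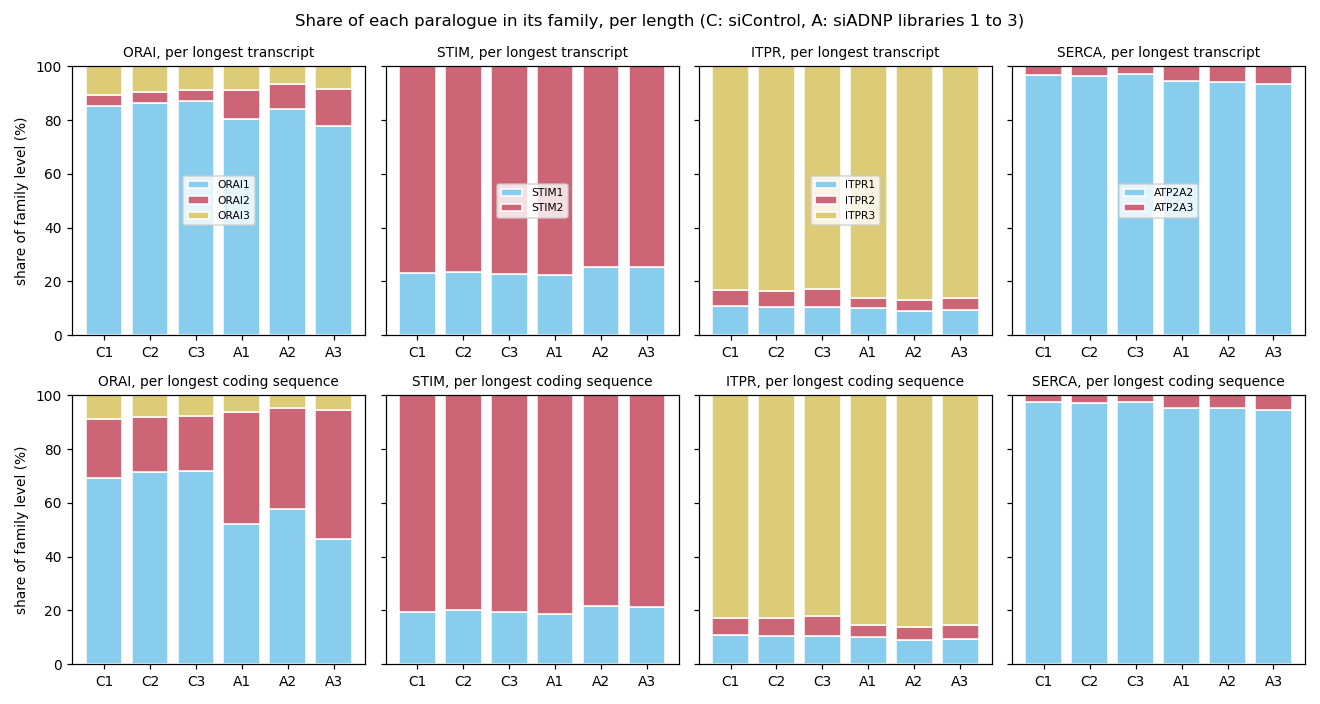
Share of each paralogue in the summed level of its family (vertical axis, percent) in siControl libraries C1 to C3 and siADNP libraries A1 to A3, with levels per kb of the longest transcript (top) or coding sequence (bottom). The ORAI2 segment is larger in A1 to A3 in both rows, while the STIM panels look alike in all libraries.

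Transcript GC content moved with the change across all genes, so it is given beside the members. Tested genes were split by GC content into 5 bins of nearly equal size. The median log2 fold change was -0.08 in the lowest bin and 0.11 in the highest, and the share called higher was 7.60% and 24.5%. The highest bin, above 58.3% GC, held ORAI1, ORAI3, ITPR3 and ATP2A3, and the next one ORAI2 and STIM1. STIM2 (44.0% GC) and ITPR2 (42.1%) lay in the second lowest bin, and ITPR1 and ATP2A2 in the middle one. Of the members in the upper 2 bins, ORAI2, STIM1, ITPR3 and ATP2A3 were called higher and ORAI1 and ORAI3 were not called. With the GC offset ORAI2, STIM2, ITPR3 and ATP2A3 were called higher, with log2 fold changes of 1.30, 0.26, 0.23 and 0.80. STIM1 (0.25, adjusted p = 0.109, edgeR) and ITPR2 (-0.23, adjusted p = 0.101, edgeR) lost their calls, and ORAI1 moved from -0.08 to -0.21. The part of GC content in the members' changes was not tested beyond this offset.

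**Figure D4:**
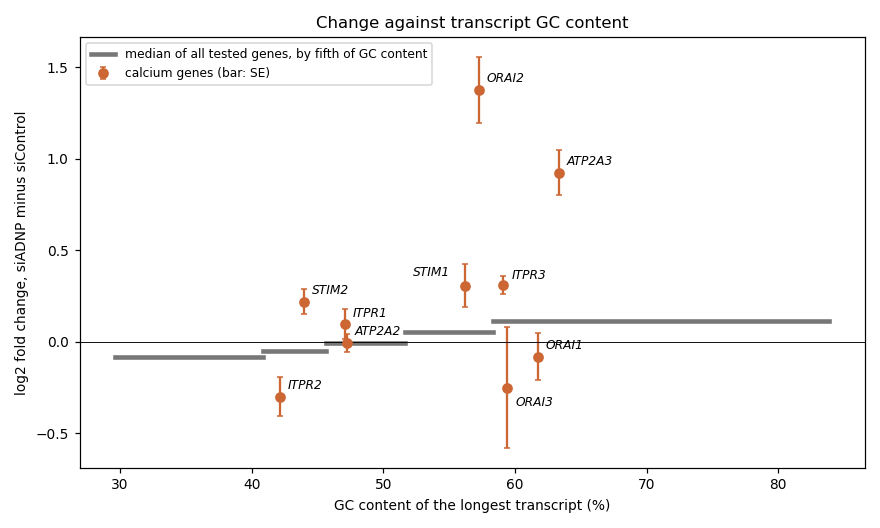
Log2 fold change of the members (orange, bar is the SE) against the GC content of the longest transcript, with the median of all tested genes in each of 5 GC bins (grey lines). The grey medians run from -0.08 to 0.11, and ORAI2 and ATP2A3 lie far above them.

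Among 10539 other genes whose mean level reached 5 CPM, those with levels most like ORAI2 over the 6 libraries were PLK1, a mitotic kinase, GLI2, a transcription factor of Hedgehog signalling, and SH3BP5, an adaptor protein. Their log2 CPM correlated with that of ORAI2 with Pearson's r of 0.998, 0.997 and 0.997. This is a description over 6 libraries that fall into 2 groups, and 865 genes had an r over 0.9. GLI2 rose from 3.20 to 8.13 CPM, close to the ORAI2 levels, whereas PLK1 rose 1.20-fold from 115 CPM.

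Other genes of calcium handling were read from a list of 172, of which 171 were in the table and 123 were tested. Of these, 27 were called higher, 18 lower and 78 did not pass (edgeR), that is 36.6% called against 28.3% of all tested genes. The median log2 fold change was 0.02. With upper-quartile scaling 34 were higher and 11 lower, and the same scaling gave 2096 higher and 1379 lower over all tested genes. DESeq2's Wald test called 12 higher and 10 lower, a share of the list close to the 18% called over all genes it tested. Leaving out siControl replicate 3 left 17 higher, and leaving out siControl replicate 1 or 2 left 10 or 11 lower. The called genes named next were taken by the naming rule and kept their call in all 16 alternatives.

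Regulators of STIM and ORAI and proteins of ER contacts with the plasma membrane gave 1 rise and 4 falls among 14 tested (7.14% and 28.6%). The other 9 did not pass, and the median log2 fold change was -0.12. Over all tested genes 14.6% were higher and 13.7% lower. The falls numbered 2 without siADNP replicate 1 or siControl replicate 1, and 2 in DESeq2. ESYT2, a tether of ER and plasma membrane, fell from 159 to 127 CPM (log2 fold change -0.32 ± 0.05, adjusted p = 1.61e-05, edgeR). TRPC1, a cation channel described with STIM1, rose from 5.90 to 9.49 CPM (0.69 ± 0.16, adjusted p = 0.00125, edgeR). SARAF, which limits store-operated entry, did not pass, at 84.8 CPM with siADNP and 93.5 CPM with siControl (-0.14 ± 0.06, adjusted p = 0.0909, edgeR). Its unadjusted p was 0.0312 (edgeR). Each siADNP library was below every siControl library, as for 20.7% of all tested genes.

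Regulators of IP3 receptors gave 4 rises and 3 falls among 18 (22.2% and 16.7%, against 14.6% and 13.7% of all tested genes). The other 11 did not pass. Without siControl replicate 1 there was 1 fall, and DESeq2 gave 1 rise and 1 fall. ITPRIPL2, a relative of the receptor-binding protein ITPRIP, fell from 89.5 to 64.8 CPM (-0.46 ± 0.06, adjusted p = 3.20e-07, edgeR), and the scaffold HOMER1 rose from 61.1 to 80.7 CPM (0.40 ± 0.06, adjusted p = 6.19e-06, edgeR). Phospholipase C genes and enzymes of inositol phosphates gave 7 rises and 2 falls among 19 (36.8% and 10.5%). The other 10 did not pass, and the median was 0.15. The rises numbered 2 without siADNP replicate 1, 3 without siControl replicate 1 or 3, and 1 in DESeq2. There was 1 fall without siADNP replicate 1 or 2 or siControl replicate 2 or 3, and 1 in DESeq2. PLCG1, the phospholipase C downstream of receptor kinases, rose from 62.3 to 75.7 CPM (0.28 ± 0.06, adjusted p = 0.000832, edgeR).

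Calcium-binding proteins of the ER and Golgi lumen gave 5 rises, 0 falls and 5 that did not pass among 10 (50% and 0%). The median was 0.16, and 0 were lower at an unadjusted p under 0.05 in edgeR or DESeq2. The reticulocalbin RCN1 rose from 155 to 195 CPM (0.33 ± 0.05, adjusted p = 7.96e-06, edgeR) and HSP90B1, which encodes GRP94, from 789 to 923 CPM (0.23 ± 0.05). Other ER and Golgi pumps, release channels and leak pathways gave 2 rises and 2 falls among 12 (16.7% and 16.7%). These shares were near those over all tested genes (14.6% and 13.7%), and the other 8 did not pass. There was 1 rise without siADNP replicate 2 or any 1 siControl replicate, and 1 fall without siADNP replicate 1 or siControl replicate 1 or 2. DESeq2 gave 1 of each. ATP2C2, a Golgi calcium pump known to act on ORAI1, rose from 5.32 to 8.70 CPM (0.70 ± 0.18, adjusted p = 0.00311, edgeR). The muscle SERCA gene ATP2A1 was weak and did not pass, at 2.95 and 2.22 CPM.

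No gene of calcium extrusion across the plasma membrane was called among 3 tested of 11 listed, the pumps ATP2B1 and ATP2B4 with log2 fold changes of -0.11 ± 0.05 and 0.11 ± 0.05 among them. At an unadjusted p under 0.05 edgeR had 1 (ATP2B4) and DESeq2 had 0. Upper-quartile scaling called 1 higher. The sodium-calcium exchanger SLC8A1 had 2 reads in all with siADNP and 0 with siControl. Mitochondrial uptake and release gave 1 rise and 4 falls among 12 (8.33% and 33.3%, against 14.6% and 13.7% of all tested genes). The other 7 did not pass, and the median was -0.07. The falls numbered 2 without siADNP replicate 2 or siControl replicate 1 or 2, and the rises 2 without siADNP replicate 3. SLC8B1, the mitochondrial sodium-calcium exchanger, rose with 0.41 ± 0.10, and the inner membrane protein GHITM fell from 388 to 335 CPM (-0.21 ± 0.05, adjusted p = 0.000666, edgeR). The uniporter MCU stood at 43.2 and 43.6 CPM and did not pass.

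Downstream, calmodulin, calcineurin, CaM kinase and NFAT genes gave 5 rises and 3 falls among 21 (23.8% and 14.3%). The other 13 did not pass, and the shares over all tested genes were 14.6% and 13.7%. The rises numbered 2 without siADNP replicate 1 or siControl replicate 3, 3 without siADNP replicate 3 or siControl replicate 1, and 1 in DESeq2. The kinases diverged. CAMK1D rose from 3.12 to 5.91 CPM (0.93 ± 0.22, adjusted p = 0.00117, edgeR), while CAMK2D fell from 109 to 83.1 CPM (-0.40 ± 0.06, adjusted p = 2.08e-06, edgeR) and CAMKK2, a kinase of other CaM kinases, fell with -0.32 ± 0.08. RCAN1, a calcineurin inhibitor and known NFAT target, did not pass, at 16.7 and 17.4 CPM (-0.06 ± 0.12). NFATC1 and NFATC3 did not pass either (0.21 ± 0.11 and -0.02 ± 0.06).

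Other calcium channels of the plasma membrane gave 2 rises and 0 falls among 14 tested of 24 listed (14.3% and 0%). The other 12 did not pass, and the median log2 fold change was 0.14. Over all tested genes 14.6% were higher and 13.7% lower. At an unadjusted p under 0.05, 0 were lower in edgeR and 0 in DESeq2, while edgeR with the GC offset had 2, and 1 without siADNP replicate 1. There was 1 rise without siADNP replicate 1 or 2 or siControl replicate 1 or 3, and 1 in DESeq2. CACNA1H, a T-type voltage-gated channel gene, rose from 25.5 to 34.6 CPM (0.44 ± 0.09, adjusted p = 0.000169, edgeR). SARAF, ATP2A1, ATP2B1, ATP2B4, SLC8A1, MCU, RCAN1, NFATC1 and NFATC3 were named for their role after their values were seen. ALKBH4 was named for its overlap with ORAI2.

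**Figure D5:**
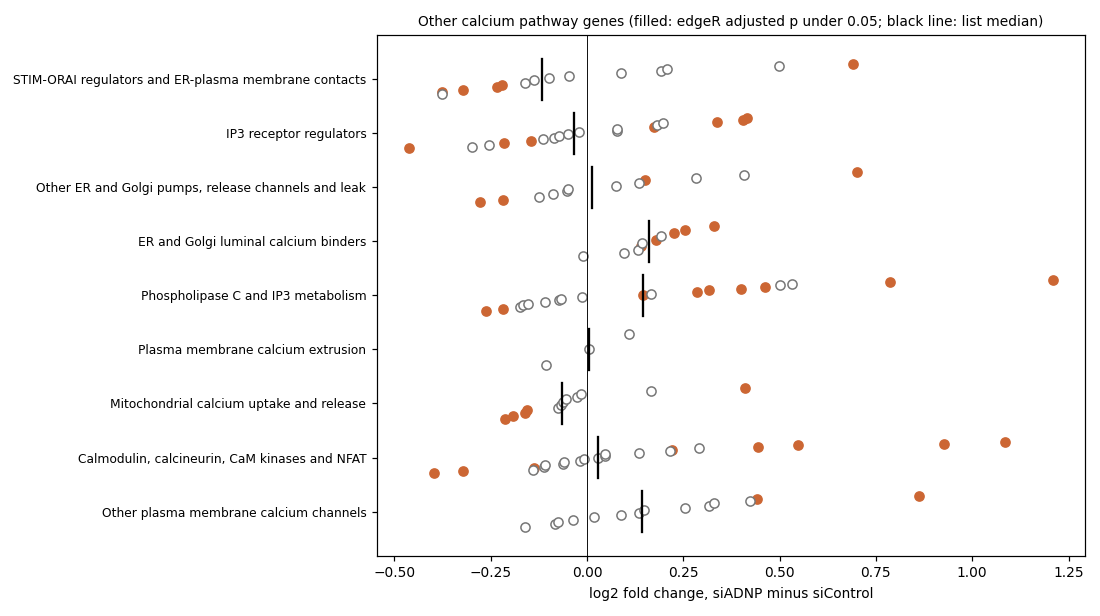
Log2 fold change (horizontal axis, siADNP minus siControl) of the 123 tested genes of other calcium lists, 1 point a gene, filled where edgeR's adjusted p was under 0.05; the black line is the list median. The luminal binders, phospholipase C genes and other plasma membrane channels have the highest medians, at 0.16, 0.15 and 0.14. The STIM-ORAI regulators have the lowest, at -0.12.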

How the data were processed

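RNA was measured in 6 libraries of HCT116 cells, 3 with siADNP and 3 with siControl, made from total RNA with a Nugen kit per the labels' protocols. The main table holds the authors' raw read counts for each gene symbol, as deposited, made with STAR and HTSeq on hg19 per the submitters' processing notes. Annotation and strand setting were not given in the sources used here. Overlapping genes may therefore share reads. A second deposited table holds values on a log2 scale, used in 1 alternative with limma. Lines that name no gene took 72.8% to 73.6% of reads in the siADNP libraries and 71.7% to 72.3% in the siControl libraries and were left out. These ranges do not overlap, and their part in the results was not tested.

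The test was that of edgeR 4.0.16 (R 4.3.3; TMM scaling, filterByExpr with a minimum count of 10, glmQLFit, glmQLFTest), two-sided, with Benjamini-Hochberg adjustment over all tested genes. The fit was also run on simulated counts with 200 genes changed and no GC trend. That setting differs from these data, so it does not show how well the calls hold here. Each SE was taken from the fold change and its F statistic. CPM values use TMM scaling. Alternatives were DESeq2 1.42.0, limma 3.58.1, other scalings and filters, offsets for GC content or length in 20 bins, a replicate block and leaving out each library. Lengths and GC content came from the longest GENCODE 29 transcript (GRCh38) and were found for 96.9% of tested genes. No coordinates of the files are used.

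The rule for naming genes took ADNP, the members, up to 4 called genes with the smallest p in each pathway list, and the 3 genes most correlated with ORAI2. One gene that the rule took is not reported here. The members and lists were chosen with earlier results of these data known. Figures were drawn with matplotlib 3.10.9.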

Additional observations from a re-analysis of the deposited data

How the results depend on the processing

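ORAI2, ITPR3 and ATP2A3 kept their direction and call in all 16 alternatives. DESeq2's Wald test called 1106 genes higher and 1079 lower in all, against 1824 and 1714 in edgeR, with 3 members higher and 0 lower and 12 and 10 genes of the pathway list. The number of members called lower was 0 in edgeR with the GC offset, and 0 when it was joined to the replicate block, and ITPR2 had an unadjusted p under 0.05 in both and in DESeq2. Upper-quartile scaling left 11 pathway genes lower, and the block joined to the GC offset 9. The GC offset gave 4 phospholipase C rises and 0 falls of ER and Golgi pumps and channels (2 at an unadjusted p under 0.05), and with the block 2 rises and 0 falls (1 at an unadjusted p under 0.05). Over all tested genes the GC offset gave 13.4% higher and 12.5% lower, and with the block 12.2% and 10.8%. Leaving out each library in turn gave 3 to 5 members higher, 0 to 1 lower, 17 to 23 pathway genes higher and 10 to 14 lower, and 1470 to 1655 genes higher and 1307 to 1508 lower over all genes. The ORAI2 share of the ORAI level was 11.1% with siADNP and 4.23% with siControl per longest transcript, 42.5% and 20.8% per coding sequence, and 38.5% and 18.2% with no length correction. Over the fits that leave out 1 library, the log2 fold change of ORAI1 ran from -0.19 without siControl replicate 1 to 0.0390 without siADNP replicate 3, with 0.0188 without siControl replicate 2. It was -0.21 with the GC offset. That of ATP2A2 turned to 0.0175 with upper-quartile scaling, 0.00529 with library totals, 0.00353 with the GC offset, 0.00273 with that offset and the replicate block, and 0.0120 without siControl replicate 3. Over the fits that leave out 1 library it ran from -0.0308 without siADNP replicate 2 to 0.0338 without siADNP replicate 1. The cause of these changes was not tested. Of 30 pathway genes taken by the naming rule, 15 kept the call in all 16 alternatives, 15 lost it in 1 to 8 of them, and none changed sign.

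Same-numbered libraries of the groups did not deviate together (correlations of deviations 0.0238, -0.0352 and -0.0290 for numbers 1, 2 and 3 over 12489 genes). No pairing by number was thus seen, but the labels do not say what a number shares, and these values cannot settle it. With the replicate block 1694 genes were higher and 1542 lower, 4 members were higher and 1 lower, and STIM1 lost its call (adjusted p = 0.0576). Depth limits ORAI3, with 10 to 20 reads per library, most.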
